A study of Mus musculus with 16 samples.

Results

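The DNA methyltransferases DNMT1, DNMT3A, DNMT3B and DNMT3L and their partner UHRF1 were followed in ES/PA6 co-cultures and in PA6 mono-cultures at day 7. The members were the probes whose target name in the deposited array table equals one of these 5 gene symbols, which gave 10 probes of 45281. Of the 5 genes, 4 were detected and tested among 14829 genes, through 7 of the 20880 probes that passed detection. Mouse embryonic stem (ES) cells carrying a knock-in of enhanced green fluorescent protein at the τ gene had been kept undifferentiated on embryonic fibroblasts with LIF. They were then seeded on a monolayer of PA6, a line of stroma of the mouse bone marrow, in serum-free N2B27 medium, and PA6 cells were grown alone in parallel. Cultures received no growth factor (-GFs), 20 ng/ml of FGF2 or 10 ng/ml of BMP4 per the labels. The study's methods state a lower dose of BMP4. The factors were added at the onset and withdrawn after 3 days, and total RNA was taken at day 7. Each culture gave 1 array, with 2 arrays of -GFs, 3 of FGF2 and 2 of BMP4 for the co-cultures and 3 of each for PA6 alone, 16 arrays in all. The labels call these biological replicates, with 1 well per condition in each. A co-culture holds ES-derived and PA6 cells together, so its values are those of a mixture.

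DNA methylation in mammals is placed mainly on cytosines followed by guanine (CpG), and it is copied at each cell division. DNMT1 methylates the new strand behind the replication fork, and UHRF1 brings it there by binding half-methylated CpG. DNMT3A and DNMT3B methylate sites that carried no mark, and DNMT3L, which has no catalytic activity of its own, binds and stimulates them and is known from germ cells and ES cells.

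Promoter sequence is shown for the detected members because CpG is the substrate of the enzymes these genes encode. The sequences are RefSeq windows of mouse assembly GRCm38.p6, each the 250 bases before a transcript start, 5′ to 3′ on the strand of the gene, with every CpG in capitals. The window given for each gene is the one with the most CpG, of 3 for DNMT1 and DNMT3L, of 2 for UHRF1 and of 1 for DNMT3B. All 5 members had a window, 12 in all.
DNMT1 promoter, chr9:20952624-20952873, minus strand: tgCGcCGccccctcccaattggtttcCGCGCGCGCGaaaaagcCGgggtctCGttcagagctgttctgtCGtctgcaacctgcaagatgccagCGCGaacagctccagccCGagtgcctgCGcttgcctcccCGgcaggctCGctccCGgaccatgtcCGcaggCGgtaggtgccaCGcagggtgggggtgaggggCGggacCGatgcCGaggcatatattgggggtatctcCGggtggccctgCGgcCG
UHRF1 promoter, chr17:56304063-56304312, plus strand: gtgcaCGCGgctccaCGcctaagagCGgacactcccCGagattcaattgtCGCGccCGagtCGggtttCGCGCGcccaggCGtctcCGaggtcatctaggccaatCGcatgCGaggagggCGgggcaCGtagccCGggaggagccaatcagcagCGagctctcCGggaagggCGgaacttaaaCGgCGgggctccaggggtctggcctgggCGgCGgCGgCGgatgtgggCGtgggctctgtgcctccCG
DNMT3B promoter, chr2:153649199-153649448, plus strand: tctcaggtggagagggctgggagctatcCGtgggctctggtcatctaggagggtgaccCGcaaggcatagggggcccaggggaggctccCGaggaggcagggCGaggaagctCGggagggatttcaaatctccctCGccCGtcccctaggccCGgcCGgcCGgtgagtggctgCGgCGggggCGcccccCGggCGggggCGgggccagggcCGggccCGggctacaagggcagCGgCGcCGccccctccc
DNMT3L promoter, chr10:78042037-78042286, plus strand: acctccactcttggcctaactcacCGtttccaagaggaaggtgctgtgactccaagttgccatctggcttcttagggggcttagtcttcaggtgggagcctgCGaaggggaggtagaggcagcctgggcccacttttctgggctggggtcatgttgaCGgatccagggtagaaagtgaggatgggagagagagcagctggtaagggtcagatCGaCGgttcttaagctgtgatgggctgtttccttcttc
The windows of DNMT1, UHRF1 and DNMT3B held 26, 30 and 21 CpG, and that of DNMT3L held 5. Over 32851 windows of the same length in the table the median was 6 CpG. A share of 91.4% of windows held as many CpG as that of DNMT1 or fewer, and the share was 94.8% for UHRF1, 85.2% for DNMT3B and 49.6% for DNMT3L. The windows of these genes not printed held 7 and 2 CpG for DNMT1 (shares of 57% and 29%), 10 for UHRF1 (64.4%) and 4 and 3 for DNMT3L (44.4% and 37.8%). The shares of the printed windows are those of the window richest in CpG of each gene, while the 32851 windows were not chosen in that way. The letters TTTCCCGC, TTTCGCGC, TTTGCCGC and TTTGGCGC, known as a motif of E2F cell cycle factors, were searched on both strands. The match TTTCGCGC lay 219 bases before the start in DNMT1 and 185 bases before it in UHRF1, where it overlaps CpG marked above. The printed windows of DNMT3B and DNMT3L held none of these letters, nor did the windows of the 4 genes not printed, and 611 of the 32851 windows (1.86%) held at least 1 match. Methylation itself was not measured, and these matches are descriptions of sequence.

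The arrays detected 37.3% to 47.0% of all probes, which is 16904 to 21261 probes, and had median intensities of 177.9 to 232.2. Arrays of one group correlated at 0.973 to 0.986 across genes, and arrays of different kinds of culture at 0.723 to 0.797. The stromal markers had a summed normalized intensity of 156288 to 202468 in PA6 alone and of 56142 to 76044 in co-cultures, with 8 of 8 detected on every array. The markers of pluripotent ES cells summed to 375 to 873 in PA6 alone, where 0 of 6 were detected on every array of any group. Values below are log2 normalized intensities unless stated otherwise. A gene was called when limma gave a Benjamini-Hochberg adjusted p under 0.1, over all genes tested, together with a log2 fold change above 1 or below -1. The fitted change is given ± its standard error (SE).

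**Figure D1:**
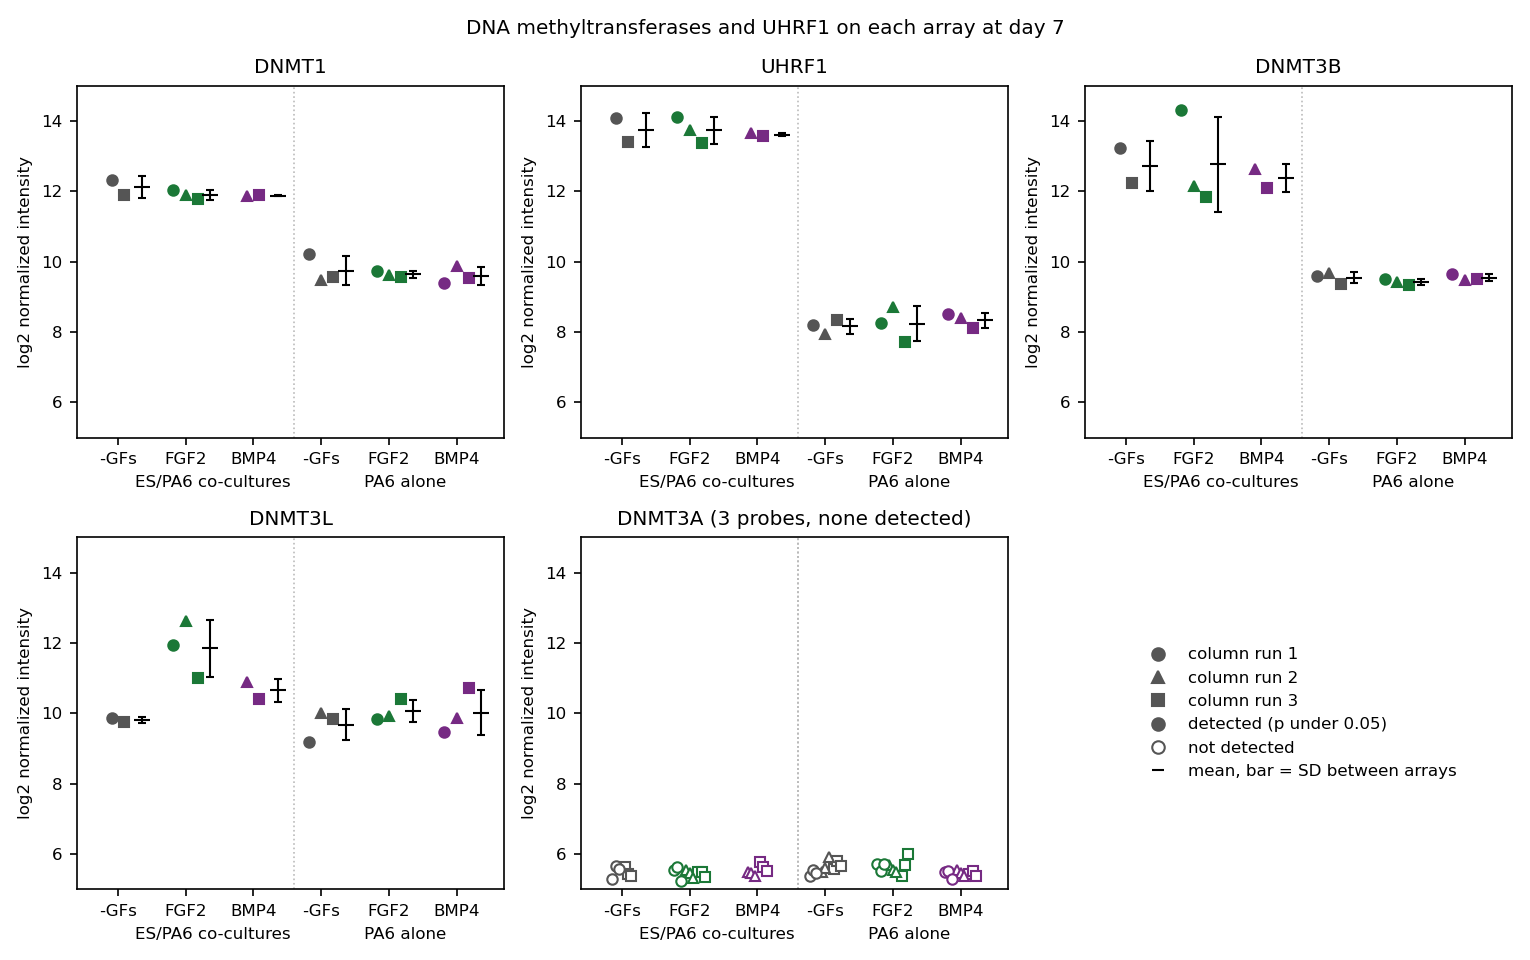
Log2 normalized intensity of each member on each of the 16 arrays, by culture and growth factor, with the mean and SD between arrays as bars and a marker shape for the run of columns an array belongs to in the deposited table. DNMT1, UHRF1 and DNMT3B lie higher on all 7 co-culture arrays than on all 9 PA6 arrays, DNMT3L is highest on the 3 co-culture arrays with FGF2, and the 3 probes of DNMT3A (open marks) were not detected.

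DNMT1, the maintenance enzyme, was higher in co-cultures than in PA6 alone under each condition. The co-culture arrays gave 12.34 and 11.90 with -GFs, 12.05, 11.91 and 11.78 with FGF2, and 11.88 and 11.89 with BMP4. The PA6 arrays gave 10.22, 9.48 and 9.56 with -GFs, 9.74, 9.62 and 9.56 with FGF2, and 9.39, 9.87 and 9.53 with BMP4. The kinds of culture did not overlap, and the lowest co-culture array stood 1.56 above the highest PA6 array. The difference between co-cultures and PA6 was 2.37 ± 0.22 with -GFs, a 5.16-fold higher level with a 95% interval of 3.70 to 7.21 (limma, adjusted p = 7.83e-07). It was 2.27 ± 0.20 with FGF2 (limma, adjusted p = 2.96e-07) and 2.29 ± 0.22 with BMP4 (limma, adjusted p = 1.32e-06). In bulk RNA, fewer cells of a type and less RNA per cell cannot be told apart.

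UHRF1 showed the widest gap between the kinds of culture among the 4 tested members. The co-culture arrays gave 14.08 and 13.41 with -GFs, 14.13, 13.74 and 13.37 with FGF2, and 13.65 and 13.59 with BMP4. The PA6 arrays gave 8.21, 7.94 and 8.34 with -GFs, 8.27, 8.71 and 7.73 with FGF2, and 8.52, 8.39 and 8.12 with BMP4. The lowest co-culture array stood 4.65 above the highest PA6 array. The level was 47.9-fold higher in co-cultures with -GFs, with a 95% interval of 30.9 to 74.3 (5.58 ± 0.29, limma, adjusted p = 3.05e-09). The change was 5.51 ± 0.26 with FGF2 (limma, adjusted p = 8.29e-10) and 5.28 ± 0.29 with BMP4 (limma, adjusted p = 5.92e-09).

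DNMT3B, the de novo enzyme that was detected, was also higher in co-cultures, with a wider spread. The co-culture arrays gave 13.23 and 12.23 with -GFs, 14.31, 12.16 and 11.85 with FGF2, and 12.65 and 12.10 with BMP4. The PA6 arrays gave 9.60, 9.68 and 9.38 with -GFs, 9.50, 9.43 and 9.33 with FGF2, and 9.66, 9.47 and 9.50 with BMP4. The kinds of culture stood 2.17 apart at their nearest arrays, while the 3 co-culture arrays with FGF2 spanned more than that. The difference was 3.18 ± 0.53 with -GFs, 9.07-fold with a 95% interval of 4.09 to 20.1 (limma, adjusted p = 1.45e-04). It was 3.35 ± 0.48 with FGF2 (limma, adjusted p = 2.74e-05) and 2.83 ± 0.53 with BMP4 (limma, adjusted p = 4.15e-04).

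Of the 4 tested members, 3 were called in co-cultures against PA6 with -GFs, where 44.1% of all genes were called. With FGF2 all 4 tested members were called, against 46.4% of genes, and with BMP4 3 were called, against 42.4%. All called members were higher in co-cultures, and the higher calls made up 22.3%, 23.4% and 22.0% of all genes in these comparisons. The groups did not overlap for 3, 4 and 3 of the 4 tested members, against 74.9%, 71.0% and 75.3% of all genes. The 7 co-culture arrays were above all 9 PA6 arrays for 3 of the 4 tested members and for 23.9% of all genes. The exception was DNMT3L, described below.

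Genes that act beside the maintenance machinery were counted where they were detected on every array of both groups compared, in co-cultures against PA6 with -GFs. Under that condition 37.2% of such genes were called. Of 5 such partners of maintenance methylation, 3 were higher and 0 lower, namely the replication clamp PCNA (1.98 ± 0.34), the DNA ligase LIG1 (2.28 ± 0.24) and CDCA7 (4.26 ± 0.24), a cofactor of chromatin remodelling. The ubiquitin protease USP7, known to stabilise DNMT1 and UHRF1, differed by -0.04 ± 0.20 and was not called. DPPA3, known to keep UHRF1 off chromatin, was detected in co-cultures and not detected on the 3 PA6 arrays with -GFs, and was at least 16.6-fold higher in co-cultures. All 13 genes of DNA replication that could be counted were higher, with a median difference of 3.13 and a range of 1.54 to 6.27, while the median of all genes detected in both groups was -0.09. The summed normalized intensity of the 18 tested replication genes was 101287 to 155680 over the co-culture arrays and 12653 to 15089 over the PA6 arrays. The part of these genes in the levels of DNMT1, UHRF1 and DNMT3B was not tested.

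DNMT3A was not detected on any of the 16 arrays. Its 3 probes had raw intensities of 99.7 to 172.3, and the lowest detection p-value among them was 0.22009, on a PA6 array with FGF2. No level or fold change is given for it, and a transcript form that these probes do not target was not analysed here.

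The comparisons of FGF2 and of BMP4 with -GFs in co-cultures addressed which members responded to the factors that steer the ES cells. With FGF2, 1 of the 4 tested members was called, against 7.42% of all genes, and it was DNMT3L. With BMP4, 0 of 4 were called, against 3.75%, and between BMP4 and FGF2 0 of 4 were called, against 1.44%. At an unadjusted p under 0.05, 22.7%, 14.9% and 14.2% of all genes passed in these comparisons, and of the members DNMT3L passed for FGF2 and for BMP4 against FGF2.

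DNMT3L was higher with FGF2 in co-cultures. The arrays gave 9.86 and 9.74 with -GFs, 11.94, 12.62 and 11.00 with FGF2, and 10.88 and 10.42 with BMP4. All 3 FGF2 arrays were above all other co-culture arrays, and both BMP4 arrays lay between the FGF2 and -GFs arrays. The 2.05 ± 0.44 rise with FGF2 was 4.15-fold, with a 95% interval of 2.04 to 8.46 (limma, adjusted p = 0.0405). Without -GFs replicate 1 the change was 2.12 with adjusted p = 0.164, and without -GFs replicate 2 it was 1.99 with adjusted p = 0.162 (limma), so that the call was lost in both cases, where the 1 remaining -GFs array was taken to vary as the other groups did. Without any other co-culture array it was 1.67 to 2.48 and was called.

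With BMP4 the difference of DNMT3L from -GFs was 0.85 ± 0.48, with an interval of -0.27 to 1.97 (limma, adjusted p = 0.486). BMP4 against FGF2 gave -1.20 ± 0.44, with an interval of -2.23 to -0.18 (limma, adjusted p = 0.278). Neither was called, although the groups did not overlap in either. Groups did not overlap for 39.7% of all genes with FGF2 against -GFs, for 46.1% with BMP4 against -GFs and for 31.4% with BMP4 against FGF2. The columns of the deposited table fall into 3 runs that hold each group at most once, and whether these were processing batches is not given in the sources used here. Within a run, FGF2 minus -GFs for DNMT3L was 2.08 in run 1 and 1.26 in run 3, and with the runs as a block it was 1.80 ± 0.32 and was called (limma, adjusted p = 0.0492). Within a run, BMP4 minus FGF2 was -1.74 in run 2 and -0.58 in run 3.

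In PA6 alone DNMT3L was detected on all 9 arrays. The arrays gave 9.17, 10.02 and 9.85 with -GFs, 9.85, 9.91 and 10.41 with FGF2, and 9.46, 9.86 and 10.73 with BMP4. These groups overlapped one another, and the 2 co-culture arrays with -GFs lay within the range of the PA6 arrays with -GFs. FGF2 against -GFs in PA6 gave 0.37 ± 0.34 (limma, adjusted p = 0.720) and BMP4 gave 0.33 ± 0.34 (limma, adjusted p = 0.795). In PA6 alone 0 of 4 tested members were called with either factor. The limma test called 4 of all genes with FGF2 (0.0270%) and 0 with BMP4 (0.00%), while 1536 (10.4%) and 1334 (9.00%) had an unadjusted p under 0.05, among them 0 members.

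The difference of DNMT3L between co-cultures and PA6 was 0.12 ± 0.44 with -GFs, with an interval of -0.83 to 1.06 (limma, adjusted p = 0.834). It was 1.80 ± 0.39 with FGF2, 3.47-fold, and was called (limma, adjusted p = 0.00107), and within the 3 runs of columns it was 2.09, 2.71 and 0.59. With BMP4 it was 0.63 ± 0.44 (limma, adjusted p = 0.228). The FGF2 effect in co-cultures minus that in PA6 was 1.68 ± 0.59, with an interval of 0.41 to 2.95 (limma, adjusted p = 0.111), and was not called. For this difference of FGF2 effects 0 of 4 members were called against 7.90% of all genes, and for BMP4 0 of 4 against 4.23%. At an unadjusted p under 0.05, 21.8% and 15.5% of all genes passed, and of the members DNMT3L passed for FGF2. Without FGF2 replicate 3 of the co-cultures the difference was 2.11 with adjusted p = 0.0298 (limma). It was also called without -GFs replicate 1 or BMP4 replicate 3 of the PA6 cultures, and over all 16 arrays left out in turn it was 1.30 to 2.11.

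**Figure D2:**
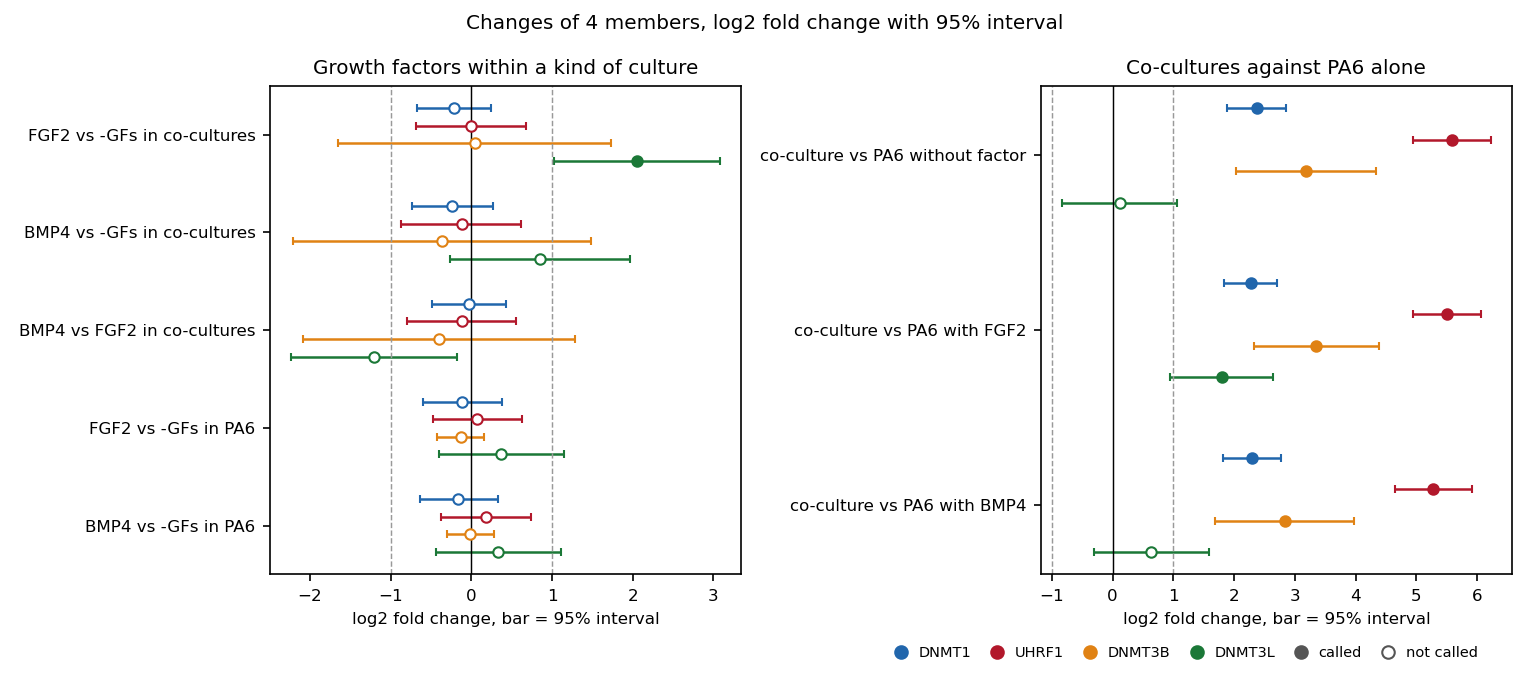
Fitted log2 fold changes (horizontal axis) of the 4 tested members in 8 comparisons, with 95% intervals as bars, filled where the member was called and open where it was not, and dashed lines at a log2 fold change of 1 in either direction. DNMT3L with FGF2 is the one filled mark on the left, and on the right DNMT1, UHRF1 and DNMT3B are filled in all 3 comparisons.

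The remaining members did not pass the test for either factor within co-cultures. DNMT1 changed by -0.21 ± 0.20 with FGF2, with an interval of -0.67 to 0.25 (limma, adjusted p = 0.591). With BMP4 it changed by -0.24 ± 0.21, with an interval of -0.74 to 0.27 (limma, adjusted p = 0.714), and both BMP4 arrays were below both -GFs arrays, the nearer by 0.01. UHRF1 changed by -0.00 ± 0.29 with FGF2, with an interval of -0.68 to 0.68 (limma, adjusted p = 0.998), and by -0.12 ± 0.32 with BMP4, with an interval of -0.87 to 0.62 (limma, adjusted p = 0.934). A difference over 2-fold in either direction lay outside these intervals of DNMT1 and UHRF1.

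For DNMT3B the precision was lower. FGF2 changed it by 0.04 ± 0.72, with an interval of -1.65 to 1.73 (limma, adjusted p = 0.980), and BMP4 by -0.36 ± 0.79, with an interval of -2.21 to 1.49 (limma, adjusted p = 0.915). The intervals include differences over 2-fold in both directions. The highest arrays of DNMT3B, 14.31 with FGF2 and 13.23 with -GFs, both belonged to run 1 of the table columns. FGF2 minus -GFs was 1.08 within run 1 and -0.38 within run 3.

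The groups could be put in order for each member by their means. For DNMT1 and for UHRF1 the order was -GFs, FGF2 and BMP4 among co-cultures, and for DNMT3B it was FGF2, -GFs and BMP4, and all neighbours within a kind of culture overlapped for these 3 members. For DNMT3L the order was co-cultures with FGF2 (11.85 ± 0.81, SD, n = 3), co-cultures with BMP4 (10.65 ± 0.32, SD, n = 2), then PA6 with FGF2, PA6 with BMP4, co-cultures with -GFs (9.80 ± 0.09, SD, n = 2) and PA6 with -GFs. The BMP4 co-cultures did not overlap the PA6 cultures with FGF2 next to them in that order, though their nearest arrays stood at 10.42 and 10.41. The highest PA6 array with BMP4 (10.73) lay within the range of the BMP4 co-cultures, and the last 4 groups overlapped their neighbours.

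A second probe of DNMT3L gave a like pattern. Its co-culture arrays gave 9.80 and 9.38 with -GFs, 12.09, 12.55 and 10.60 with FGF2, and 10.83 and 10.16 with BMP4. All 3 FGF2 arrays were above both -GFs arrays, while the lowest FGF2 array lay within the range of BMP4. Fitted over all 20880 probes, its change with FGF2 was 2.16 ± 0.54 and was called (limma, adjusted p = 0.0702). The PA6 arrays of this probe gave 9.07 to 10.50, and its FGF2 effect in co-cultures minus that in PA6 was 2.14 ± 0.70 and was called (limma, adjusted p = 0.0964). Both probes are read on the same arrays and are not replicates of each other.

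The second probe of UHRF1 did not follow the first. It was dim, with detection on 5 of 7 co-culture arrays and 1 of 9 PA6 arrays. The co-culture arrays gave 6.64 and 6.38 with -GFs, neither detected, 8.41, 8.66 and 6.49 with FGF2, and 7.65 and 7.06 with BMP4. Its group mean with FGF2 was at least 2.49-fold that with -GFs, though the FGF2 array at 6.49 lay below the -GFs array at 6.64. With BMP4 its mean was at least 1.76-fold that with -GFs and at least 1.42-fold that of PA6 with BMP4. It passed the filter on detection only through the co-cultures with FGF2 and BMP4, where it was high, so no test of these differences is given. With -GFs it was detected in neither kind of culture.

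The second probe of DNMT3B was detected on 4 of 16 arrays, all of them co-cultures. Its co-culture arrays gave 6.96 and 6.11 with -GFs, 7.82, 5.80 and 6.16 with FGF2, and 6.56 and 6.60 with BMP4, and its PA6 arrays 5.59 to 6.13. The probe was not detected on any of the 9 PA6 arrays and its co-culture levels reached no bound above them, so no fold change is given. Its highest array was the same as for the first probe, FGF2 replicate 1. The sequences of the probes and the transcripts they target were not analysed here.

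**Figure D3:**
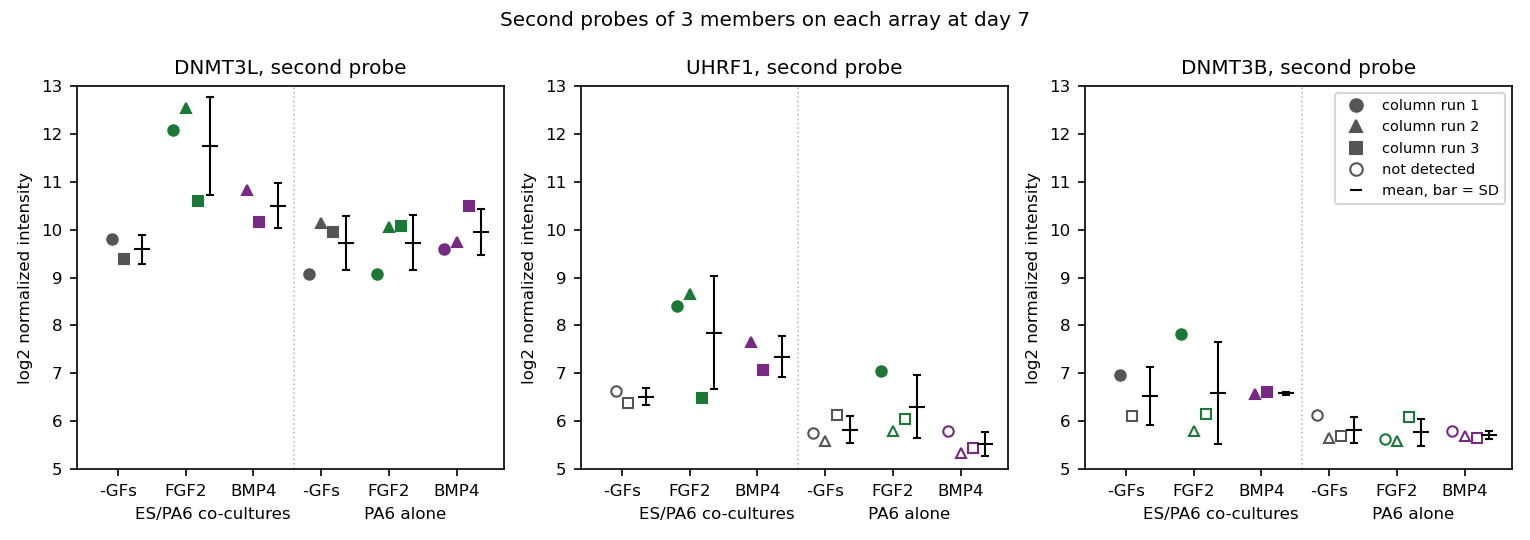
Log2 normalized intensity of the second probes of DNMT3L, UHRF1 and DNMT3B on each array, with the mean and SD between arrays as bars and open marks where the probe was not detected. The 3 FGF2 co-culture arrays of DNMT3L, from 10.60 to 12.55, are all above both -GFs arrays, and the probes of UHRF1 and DNMT3B are not detected on 8 and 9 of the 9 PA6 arrays.

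The other genes of DNA methylation and its removal were taken as lists, and in each the genes detected on every array of both groups were counted. With FGF2 against -GFs in co-cultures, 6.09% of all genes detected in that way were called. Of 8 genes of DNA demethylation 3 were higher and 0 lower, with a median of 0.78 against -0.06 over all genes tested. When the fit held the column runs or the replicate numbers as a block, 2 of the 8 were called. The count was also 2 with median scaling and without background correction. TET1, which oxidises 5-methylcytosine, rose by 1.54 ± 0.31 (limma, adjusted p = 0.0356), the cytidine deaminase APOBEC1, best known for editing RNA, by 1.85 ± 0.35 (limma, adjusted p = 0.0286), and the DNA glycosylase MBD4 from a mean of 8.64 to one of 9.64 (limma, adjusted p = 0.0925). Without -GFs replicate 1 of the co-cultures 0 of these 8 were called, at a median of 0.72. The 1 remaining -GFs array was then taken to vary as the other groups did. The glycosylase TDG changed by -0.30 ± 0.30 and TET2 by 0.80 ± 0.29, and neither was called.

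Among 13 chromatin partners of de novo methylation, ZFP57, a zinc finger protein that protects methylation at imprinted genes, was the 1 gene called, at 1.06 ± 0.31 (limma, adjusted p = 0.0976). Of 6 partners of maintenance methylation, 5 methyl-CpG readers and 8 genes of the methyl donor cycle, 0 were called. The maintenance partners changed by -0.21 to 0.34. With BMP4, where 2.89% of such genes were called, 0 genes of these 5 lists were called, and TET1 changed by -0.04 ± 0.34. TET1 was lower with BMP4 than with FGF2, at -1.57 ± 0.31 (limma, adjusted p = 0.0967), where 1.10% of such genes were called.

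Genes known to be silenced by methylation of their promoters, most of them of germ cells, numbered 14, of which 4 were detected on every array of both groups. All 4 were higher with FGF2. DAZL, a germ cell protein that binds RNA, rose by 3.58 ± 0.40 (limma, adjusted p = 0.00718), TEX19.1 by 2.44 ± 0.34 (limma, adjusted p = 0.0110), the homeobox gene RHOX5 by 2.31 ± 0.21 (limma, adjusted p = 0.00451) and the tubulin gene TUBA3A by 2.03 ± 0.34 (limma, adjusted p = 0.0206). ASZ1 and MOV10L1 were not detected with -GFs and stood at least 10.7-fold and at least 1.49-fold higher in FGF2 co-cultures. Both passed the filter on detection only through cultures with a factor, so they are not counted and no test of them is given. MAEL, SYCP3, SYCP1, TEX101, HORMAD1 and TDRD1 of the 14 were not detected on any FGF2 array. TDRD1 was detected on some co-culture array with -GFs. With BMP4, 3 of the 4 were higher, namely DAZL (2.76), TEX19.1 (1.81) and RHOX5 (1.40), and TUBA3A at 1.09 ± 0.37 was not called (limma, adjusted p = 0.227). When the fit held the column runs or the replicate numbers as a block, 2 of the 4 were called with BMP4. With a co-culture array left out in turn, 3 to 4 of 4 were called for FGF2 and 0 to 3 of 4 for BMP4, with 0 without -GFs replicate 2 or BMP4 replicate 1. No methylation was measured at these genes, and DAZL is also among the markers of germ cells below.

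**Figure D4:**
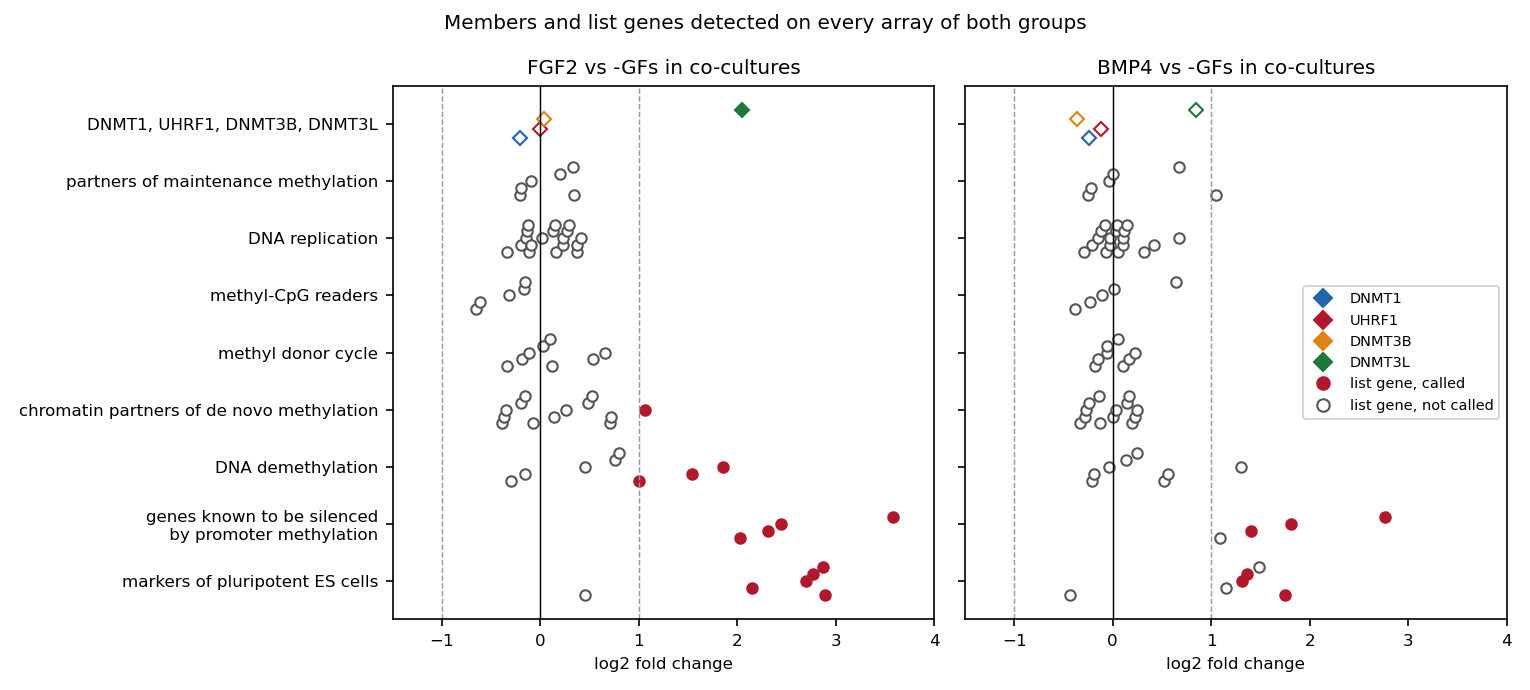
Fitted log2 fold changes (horizontal axis) with FGF2 and with BMP4 against -GFs in co-cultures for the 4 tested members (diamonds) and for the genes of 8 lists detected on every array of both groups (circles), filled where called. The 18 genes of DNA replication lie between -0.34 and 0.41 with FGF2, while the 4 genes silenced by promoter methylation and 5 of 6 pluripotency markers lie above 2.

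Markers of several cell types moved with the growth factors in the same co-cultures as DNMT3L. The 6 markers of pluripotent ES cells, where DNMT3L is also known to be expressed, had a summed normalized intensity of 10282 to 10517 with -GFs, 47795 to 58252 with FGF2 and 17788 to 32914 with BMP4, and 6 of 6 were detected on every one of these arrays. With FGF2, 5 of 6 were called higher, the largest of them TDGF1 (2.89 ± 0.56), ESRRB (2.87 ± 0.28), ZFP42 (2.77 ± 0.34) and POU5F1 (2.70 ± 0.43), and SOX2 changed by 0.45 ± 0.19 and was not called. With BMP4, 3 of 6 were called higher, and 1 of 6 was when the fit held the column runs as a block. With a co-culture array left out in turn it was 0 to 5, with 0 without -GFs replicate 1, -GFs replicate 2 or BMP4 replicate 1, 1 without FGF2 replicate 1 or 3, 2 without FGF2 replicate 2 and 5 without BMP4 replicate 2. In PA6 alone DNMT3L was detected on all arrays. There SOX2 and TDGF1 were not detected on any array with -GFs, NANOG, ZFP42, SOX2 and TDGF1 on any with FGF2, and NANOG and TDGF1 on any with BMP4, while the other pluripotency markers were each detected on some arrays of these groups and not on all.

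The 4 tested germ cell markers summed to 1901 to 2440 with -GFs, 5224 to 7127 with FGF2 and 5724 to 6287 with BMP4, and SYCP3 was not detected in any group. The tested endothelial markers, 2 of 6, summed to 206 to 286, 1713 to 2976 and 754 to 1268, and those of blood, 2 of 6, to 342 to 417, 3282 to 6491 and 699 to 2139. Of the endothelial markers TEK, CDH5, TIE1 and ICAM2 were not detected with -GFs, and TIE1 and ICAM2 not with FGF2. With BMP4 each of the 6 was detected on some array. Of the blood markers TYROBP and FCER1G were not detected in any of the 3 groups. PTPRC was not detected with -GFs or FGF2 and was detected on some array with BMP4. LAPTM5 was called with FGF2 and CD68 was not. The neural markers, 3 of 6 tested, summed to 13985 to 18926 with -GFs, 8716 to 9436 with FGF2 and 7627 to 8930 with BMP4. The sums of the pluripotency markers took the order of DNMT3L among the groups of co-cultures without overlap. So did the sums of PECAM1 with TEK and of CD68 with LAPTM5, the markers of endothelium and blood that were tested. TEK passed the filter on detection only through cultures with a factor. Detection of TIE1, ICAM2 and PTPRC, which were not tested, did not take that order. The sums of the germ cell markers overlapped between FGF2 and BMP4, and those of DNA replication between all 3 groups. The part of each of these cell types in the level of DNMT3L was not tested.

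The genes whose pattern over the 16 arrays was most like that of each member were found as the smallest root mean square (RMS) difference after each gene was centred on its own mean. For DNMT3L these were LOC100047300 (0.37), the glycolytic enzyme PFKP (0.38) and SCL0001297.1_42 (0.38), against a median of 1.05 over all genes. For DNMT1 they were FANCA, a DNA repair gene (0.19), IGF2BP1, a protein that binds RNA (0.20), and 9430065L19RIK (0.21), against a median of 1.24. For UHRF1 they were HOMER2 (0.27), MKRN3 (0.29) and FANCD2, of the same repair pathway as FANCA (0.29), against 2.74. For DNMT3B they were E430003D02RIK (0.39), CHAF1B, a subunit of the factor that assembles chromatin at replication (0.42), and the replicative helicase subunit MCM6 (0.42), against 1.68. HOMER2, MKRN3, FANCD2 and FANCA were detected on 0 of 9 PA6 arrays, and LOC100047300 and SCL0001297.1_42 on 0 of 9 PA6 and 4 of 7 co-culture arrays, so that their RMS values rest in part on background. The other 6 genes named were detected on all 16 arrays.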

How the data were processed

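Gene expression in 16 cultures was measured on Illumina whole-genome mouse BeadChips from total RNA. The deposited table gives an average bead intensity per probe and array, not normalized, and a detection p-value that the authors obtained with GenomeStudio (version 2011.01 per the labels), that is, how often control beads without a target were as bright. The cubic spline normalized values of the study were not used here. Its thresholds, its choice of probe and limma were kept.

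Intensities were background corrected with normexp from the detection p-values, quantile normalized and, with 16 added, log2 transformed (limma 3.58.1, R 4.3.3). Probes with a detection p under 0.05 on every array of at least 1 of the 6 groups were kept, which left 20880 of 45281, and of several probes of a gene the brightest on average stood for it, which left 14829 genes. Linear models were fitted to the 7 co-culture arrays, to the 9 PA6 arrays, and to all 16 arrays for comparisons between both kinds of culture. The main fits over genes were tested on simulated data. The alternative fits, among them those by probe, with a block or with an array left out, were not. Where no array of a group detected a probe, the fold is one of group means, a lower bound against the dimmest signal those arrays detected. The number of arrays limits the precision.

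The members, lists, tests and thresholds were chosen with earlier results of these data known. The lists held 116 genes, of which 109 matched a target name directly and 6 by a synonym. TET1, for example, stands under CXXC6. In all 88 were tested. The called genes of the lists were named, at most 4 per list and comparison, and the 3 genes nearest to each member. Any further list gene named was chosen after its values were seen. Of the 30854 target names, 22024 (71.4%) matched a RefSeq symbol or synonym. Alternatives covered scaling, background correction, offset, filter, thresholds, variance prior, blocks, probes, samples in the fit and each array left out.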

Additional observations from a re-analysis of the deposited data

How the results depend on the processing

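Of 115 alternative values of the counts of members called, 109 were the same number. For the FGF2 effect in co-cultures minus that in PA6 the count was 1 in place of 0 without background correction, with an offset of 50 and with a variance prior with trend and robust fitting, in each case through DNMT3L (1.58, 1.65 and 1.68). With every retained probe called, the count for co-cultures against PA6 with -GFs was 1 in place of 3, with FGF2 3 in place of 4 and with BMP4 2 in place of 3. The second probe of DNMT3B was not called in any of the 3, nor that of UHRF1 with -GFs. With arrays left out in turn, the members called with FGF2 in co-cultures were 0 to 1 and for the difference of FGF2 effects 0 to 1, and the other counts did not move.

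Changes near 0 that were not called turned sign as follows. With median scaling DNMT3B with FGF2 in co-cultures was -0.22, UHRF1 with BMP4 0.00, DNMT1 and UHRF1 with BMP4 against FGF2 both 0.27, UHRF1 with FGF2 in PA6 -0.08, DNMT3L in co-cultures against PA6 with -GFs -0.07 and the DNMT1 difference of BMP4 effects 0.19. With the runs of table columns as a block UHRF1 was 0.04 with FGF2, 0.11 with BMP4 and 0.07 for BMP4 against FGF2, DNMT3B was 0.43 with BMP4 and 0.17 for BMP4 against FGF2, DNMT1 was 0.07 for the latter, its difference of BMP4 effects was 0.00, and 560 genes in place of 214 were called for BMP4 against FGF2. The second probe of UHRF1 gave 1.34 with FGF2, 0.84 with BMP4, -0.30 with BMP4 in PA6 and 0.87 and 1.14 for the differences of effects, that of DNMT3B 0.04 with BMP4 and 0.16 for the difference of BMP4 effects, and that of DNMT3L -0.12 in co-cultures against PA6 with -GFs. The values of the second probes of UHRF1 and DNMT3B are differences from groups in which the probe was undetected on some or all arrays, so that their size is not a measure of change. Their sign is not one either, apart from the lower bounds on group means given above for UHRF1. The cause of these turns was not tested. Median scaling moved the median of all genes from -0.06 to -0.21 with FGF2 in co-cultures, from -0.00 to 0.09 with BMP4 and from 0.04 to 0.29 for BMP4 against FGF2, and called 856 genes in place of 556 with BMP4, 494 in place of 214 for BMP4 against FGF2, 741 in place of 1172 for the difference of FGF2 effects, and 26 in place of 4 with FGF2 and 2 in place of 0 with BMP4 in PA6. The share of higher calls moved from 52.3% to 63.8% for BMP4 against FGF2 and from 62.3% to 75.2% and from 61.6% to 77.4% for the differences of FGF2 and BMP4 effects.

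With arrays left out in turn, these changes also crossed 0. In co-cultures with FGF2, DNMT1 ran from -0.42 to 0.01, DNMT3B from -0.73 to 0.54 and UHRF1 from -0.34 to 0.34. With BMP4, DNMT3B ran from -0.86 to 0.14 and UHRF1 from -0.46 to 0.22, and for BMP4 against FGF2, DNMT1 from -0.10 to 0.04, DNMT3B from -0.86 to 0.37 and UHRF1 from -0.31 to 0.07. In PA6 with FGF2, DNMT1 ran from -0.25 to 0.12 and UHRF1 from -0.16 to 0.33, and with BMP4, DNMT1 from -0.29 to 0.08, DNMT3B from -0.09 to 0.06 and DNMT3L from -0.02 to 0.61. DNMT3L in co-cultures against PA6 with -GFs ran from -0.14 to 0.29. The difference of FGF2 effects ran from -0.33 to 0.12 for DNMT1, from -0.59 to 0.67 for DNMT3B and from -0.41 to 0.26 for UHRF1, and that of BMP4 effects from -0.31 to 0.14, from -0.85 to 0.15 and from -0.64 to 0.03.

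The replicate numbers of the labels did not meet the rule for pairing. Deviations of co-culture arrays with the same number correlated at -0.199 to 0.283, and of PA6 arrays, where the numbers and the runs of columns coincide, at 0.0697 to 0.199. Co-culture arrays of the same run correlated at 0.0976 to 0.283 (median 0.199) and those of different runs at -0.283 to 0.0976 (median -0.0976), and the 18 PA6 pairs of different runs at -0.136 to -0.0122. With the replicate number as a block DNMT3L rose by 2.48 ± 0.32 with FGF2 in co-cultures and was called (limma, adjusted p = 0.0503), UHRF1 turned to 0.19 with FGF2 and to 0.04 for the difference of FGF2 effects, and the genes called with FGF2, with BMP4 and for BMP4 against FGF2 were 988, 258 and 11 in place of 1100, 556 and 214, and with FGF2 in PA6 23 in place of 4. With this block 0 in place of 3 of the 6 pluripotency markers were called with BMP4. The block changed no other call of a member.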
